A study of Gallus gallus with 100 samples.

Results

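The granins SCG2, SCG3, SCG5, CHGA and CHGB were followed in RNA of whole pituitary glands from chickens. The 5 genes were chosen by name, not by their values, and looked up in the gene symbol column of 6 tables, 1 for each day of age. Of the 5, 4 were listed in at least 1 table, among 18685 genes listed in any table. SCG3 and SCG5 were listed at all 6 days, CHGA at days 21, 26 and 32, and SCG2 at day 32. CHGB was listed in no table and is not analysed here.

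Granins are acidic soluble proteins that are packed together with peptide hormones into dense-core secretory granules, the storage organelles of endocrine cells and neurons. In mammals, chromogranin A (CHGA) and secretogranin II (SCG2) aggregate at the low pH and high calcium of the trans-Golgi network and are cut into smaller peptides. Secretogranin III (SCG3) binds cholesterol-rich membrane and holds chromogranin A there, and SCG5, also called 7B2, is the chaperone of the prohormone convertase PCSK2. Their transcripts are widely used as markers of neuroendocrine cells, and both hormone cells of the anterior lobe and neurons carry them.

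The birds were male Ross 708 broilers, a line bred for meat, and each library came from 1 bird. Control birds were kept at 25 °C, and from day 21 the heat-stressed birds, in a separate house, had 8 hours per day at 35 to 37 °C. Both houses shared the light schedule and feeding. The tables held 15 control libraries of day 21, taken before any heat, 10 control and 13 heat-stressed libraries of day 22 (8 hours of heat), 6 and 5 of day 26 (2 hours of acute heat), 6 and 6 of day 32 (4 hours of acute heat), 5 and 5 of day 40 (labelled as week, with no further account of that day), and 10 and 17 of day 42 (3 weeks of daily heat). Since each condition had 1 house, house and heat cannot be told apart, and p-values measure the spread between birds of a house. Values are FPKM, the number of fragments of a gene corrected for its length and for how many reads that library had mapped, as the authors deposited them.

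The labelled tissue was checked against its markers. The summed FPKM of the listed anterior pituitary hormones had medians from 19.8 to 130 in the groups of days 21 to 40, and was between 91286 and 235596 in every library of day 42. No library before day 42 had more than 1668 FPKM of these hormones, so the defining products of the anterior lobe were low there against day 42, and the summed myelin markers were between 7819 and 71627 FPKM at days 22 to 40 and at most 91.3 FPKM at day 42. The summed anterior pituitary factors, of which 6 to 8 were listed, were at most 74.6 FPKM before day 42 and at least 843 at day 42. Among them only the gonadotropin-releasing hormone receptor GNRHR was at 0 throughout a group. This was so at day 21 and in heat-stressed birds of day 22, and was not taken as absence. The libraries before day 42 thus went against their label of whole pituitary in these markers. The part of this difference in the granin values was not tested, and in bulk tissue fewer cells of a type and less RNA per cell cannot be told apart. Depth relative to the deepest library of a table was only estimated, from the smallest values above 0. The estimate was 0.391 to 1 at days 21 to 40 and 0.00512 to 1 at day 42, where that of heat-stressed library 984 was by far the lowest. It was 0.107 to 1 in the controls of day 42, although the authors give a narrow range of reads per library, so it is no measure of reads. Libraries carry numbers, and of the 27 of day 42, 14 were below 1100 and 11 from 1400 to 1500, while those of the earlier days were mostly 1500 and above or from 1200 to 1400. Libraries 1012, 1014 and 1077 of day 42 stood apart in SCG3, and 1280, 1432, 1437 and 1315 of earlier days in SCG5, and values without them are given beside the comparisons they moved most.

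On the galGal4 genome, SCG3 (Entrez 415424) lies on chromosome 10, from 8594073 to 8621390 in the table of day 21, and SCG5 (Entrez 769742) on chromosome 5, from 29862647 to 29890501. CHGA (Entrez 423420) lies on chromosome 5 from 44155025 to 44165642, and SCG2 (Entrez 424808) on chromosome 9 from 7713253 to 7718997. No other listed gene overlapped them. The start of SCG3 was 8595777 in the tables of days 26 and 42, where the gene spans 25621 and 25614 bases with introns, against 27318 at day 21. The transcript length used for the FPKM is not given in the sources used here. The span of SCG5 was the same in all tables.

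SCG3 kept within a narrow range from day 21 to day 40 and was several times higher at day 42. In control libraries it was 91.6 ± 15.2 FPKM (SD, n = 15) at day 21, 87.0 ± 19.5 (n = 10) at day 22, 62.3 ± 7.66 (n = 6) at day 26, 76.3 ± 8.62 (n = 6) at day 32 and 68.2 ± 8.35 (n = 5) at day 40. At day 42 it was 464 ± 206 (n = 10). The order of the control means was thus day 42, 21, 22, 32, 40 and 26, and the ranges of all neighbours in this order overlapped, those of days 42 and 21 only through library 1012. The lowest, median and highest libraries were 65.5, 87.8 and 117 FPKM at day 21 and 60.5, 88.9 and 130 at day 22. They were 50.8, 64.6 and 70.2 at day 26 and 70.2, 73.9 and 93.2 at day 32. The 5 control libraries of day 40 were at 57.7, 61.7, 70.6, 73.4 and 77.8 FPKM. At day 42 the lowest, median and highest were 29.3, 484 and 701, and 9 of 10 control libraries were above every earlier library of either condition. The exception was library 1012, at 29.3 FPKM, the lowest of all 98 libraries. Library 1012 was unusual beyond SCG3. It had the fewest genes at 1 FPKM or more of all libraries, 6709 against a group median of 9038. Its summed FPKM, 281671, was the lowest of day 42. SCG3 ranked 452nd of 14458 genes by mean FPKM at day 21 and 98th of 13931 in the controls of day 42.

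**Figure D1:**
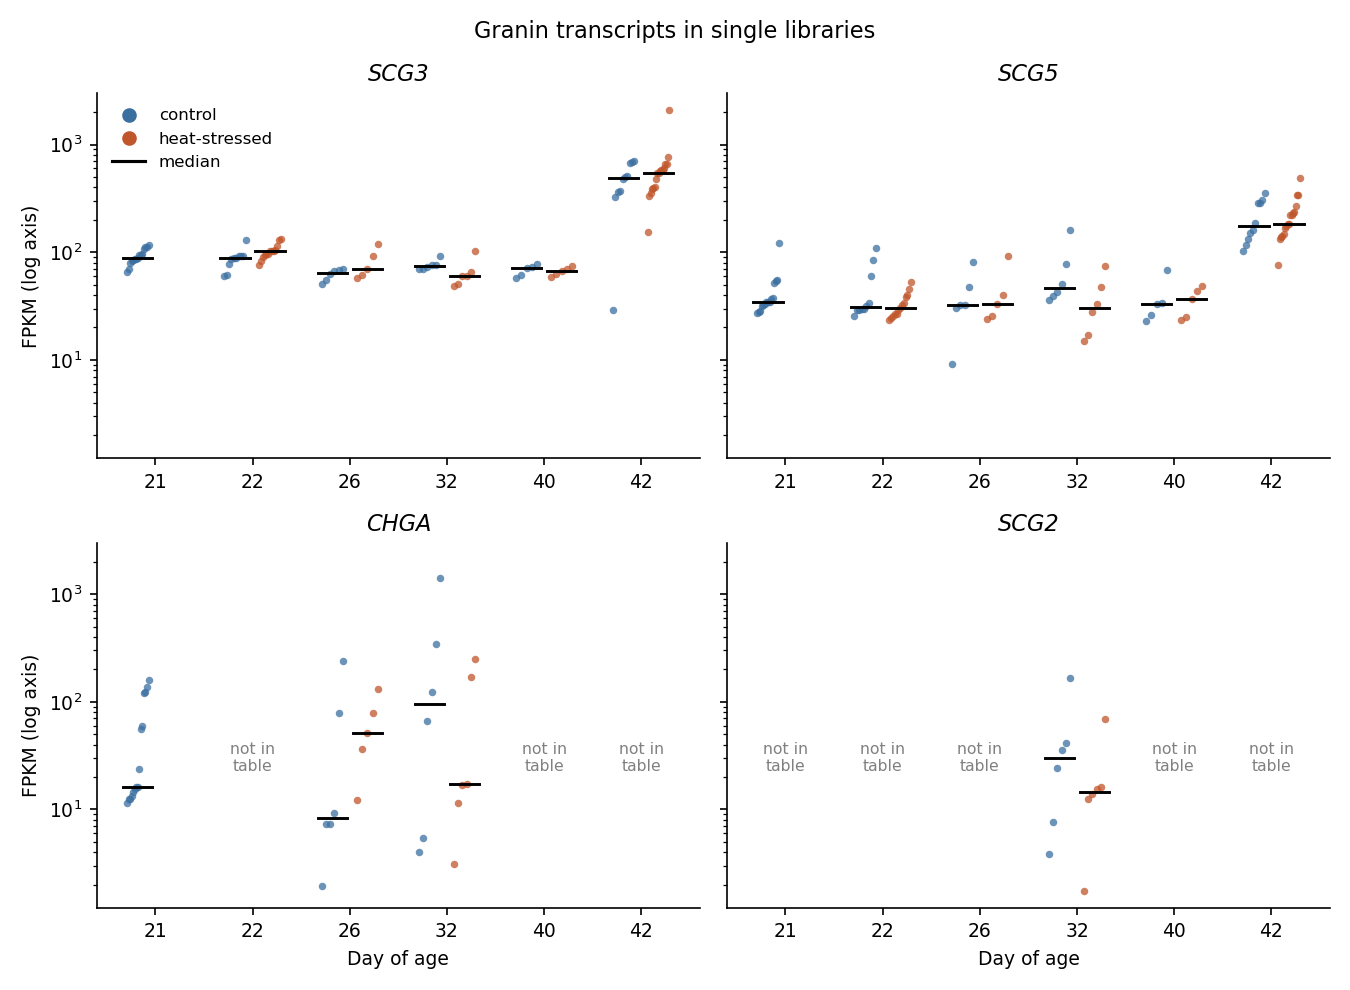
FPKM (log axis) of SCG3, SCG5, CHGA and SCG2 in each library by day of age, in control (blue) and heat-stressed (orange) birds, with the median of each group as a black line. SCG3 and SCG5 sit higher at day 42 than before, while CHGA and SCG2, listed at 3 days and 1 day, spread over more than 10-fold within every group.

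SCG5 had lower means than SCG3 in every group and, before day 42, a larger coefficient of variation. At day 42 this was not so, with 44.4% for SCG3 and 43.5% for SCG5 in controls and 69.6% and 45.8% in heat-stressed birds. In control libraries it was 42.7 ± 23.7 FPKM (SD, n = 15) at day 21, 46.2 ± 29.0 (n = 10) at day 22, 38.9 ± 24.2 (n = 6) at day 26, 67.7 ± 47.9 (n = 6) at day 32, 36.7 ± 17.98 (n = 5) at day 40 and 209 ± 90.8 (n = 10) at day 42. The order of the means was day 42, 32, 22, 21, 26 and 40, and the ranges of all neighbours in this order overlapped. Most libraries lay close together and a few rose far above. At day 21 the lowest, median and highest were 27.1, 34.4 and 122 FPKM, the highest in library 1280. At day 22 they were 25.5, 30.8 and 109, with library 1437 at 85.4 and library 1432 at the top. At day 26 they were 9.09, 32.5 and 81.7, and at day 32 they were 36.2, 46.4 and 161, the last in library 1315. The 5 controls of day 40 had 22.9, 26.4, 33.1, 33.4 and 67.9 FPKM. At day 42 the range was 103 to 351 with a median of 174. The coefficient of variation of SCG5 was 55.6% at day 21, above that of 89.6% of genes, but 25.6% without library 1280, where the median gene had 24.2%. For SCG3 it was 16.6% at day 21, above that of 22.0% of genes.

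SCG3, counted per kilobase, exceeded SCG5 in 91 of 98 libraries. The ratio of their FPKM had a median of 2.57 at day 21 and 2.35 in the controls of day 42, where library 1012 had the lowest ratio of all, 0.249. The other 6 libraries below 1 were 1280 at day 21 (0.537), 1432 at day 22 (0.844), 1512 (0.819) and 1510 (0.761) at day 26, 1315 at day 32 (0.470) and heat-stressed library 1014 at day 42 (0.581). PCSK2, the convertase that SCG5 chaperones, was well below SCG5 in every library, with a median ratio of SCG5 to PCSK2 of 7.76 at day 21 and 12.0 in controls of day 42. PCSK2 itself was 4.99 ± 1.46 FPKM (SD, n = 15) at day 21, 5.23 ± 1.83 (n = 10) in controls of day 22 and 17.8 ± 7.15 (n = 10) in controls of day 42.

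The comparison of days asks whether granin transcripts change with age, and both genes listed at day 42 were higher there. Since the markers of the tissue changed between the same tables, age and tissue content cannot be told apart in any comparison with day 42. Against controls of day 22, SCG5 was higher by a log2 fold change of 2.22 (95% interval 1.61 to 2.82, adjusted p = 7.20e-07, limma) and SCG3 by 2.12 (1.30 to 2.94, adjusted p = 8.62e-05), on the log2(FPKM + 1) scale. Both of the granins tested were called higher, as were 12.8% of 8298 genes. The call of SCG5 was lost with the library number range as a covariate (1.07, adjusted p = 0.0645 by limma), where 982 genes were called higher. These groups share only the range 1400 to 1500. At day 22 that fit thus rests on libraries 1432 and 1437, the highest of that day in SCG5. Over all genes, the reported fit called 1064 higher and 1678 lower. This split became 793 and 4007 under TPM and 1394 and 1331 after rescaling to the median gene. Against day 21 the log2 fold changes were 2.26 for SCG5 (adjusted p = 1.70e-09) and 2.03 for SCG3 (adjusted p = 4.95e-06), with 13.2% of genes called higher. Against day 40 they were 2.46 for SCG5 (adjusted p = 7.83e-06, exact permutation p = 0.000666, two-sided) and 2.44 for SCG3 (adjusted p = 0.00136, exact permutation p = 0.0040), with 11.2% of genes called higher. Every control library of day 42 was above every one of day 40 in SCG5, which held for 5.96% of genes. In SCG3 9 of 10 were. These comparisons share the controls of day 42.

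In heat-stressed birds the same step was seen in other libraries. From day 22 to day 42 SCG5 went from 33.1 ± 8.96 FPKM (SD, n = 13) to 218 ± 99.8 (n = 17), a log2 fold change of 2.60 (adjusted p = 5.77e-14), and SCG3 from 102 ± 16.4 to 594 ± 413, a log2 fold change of 2.35 (adjusted p = 7.90e-12). Both were called higher, as were 12.3% of 8249 genes. In both, the lowest library of day 42 was above the highest of day 22, at 76.6 against 53.0 FPKM in SCG5 and 155 against 132 in SCG3, and this held for 3.75% of genes. The 17 heat-stressed libraries of day 42 spread most in SCG3, from 155 in library 1014 to 2088 in library 1077, with a median of 542.

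The size of the step, and for SCG5 the call in controls, depended on a few libraries and on the scale. Without library 1012 the log2 fold change of SCG3 in controls rose from 2.12 to 2.52 against day 22, from 2.03 to 2.43 against day 21 and from 2.44 to 2.84 against day 40. Among libraries numbered 1400 to 1500, which at day 22 are only 1432 and 1437, SCG3 was higher at day 42 by 2.52 (adjusted p = 7.95e-05) and SCG5 by 1.07, which did not pass (adjusted p = 0.0890). Those 2 libraries were the highest of day 22 in SCG5. Among heat-stressed libraries numbered 1200 to 1400, 2 of each day, SCG5 was higher at day 42 by 2.48 (adjusted p = 0.0101) and SCG3 by 2.35 (adjusted p = 0.00261). Scaled to the same FPKM total in every library (TPM), the steps from day 22 in controls were 1.49 for SCG5 and 1.38 for SCG3, and the median of all tested genes moved from -0.15 to -0.85. Both genes were still called higher under that scaling and after rescaling to the median gene (2.50 for SCG5 and 2.40 for SCG3).

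Between the earlier days no granin was called. From day 21 to day 22 SCG3 changed by -0.09 (adjusted p = 0.842) and SCG5 by 0.04 (adjusted p = 0.977), where 0.0643% of genes were called. Without library 1280 the SCG5 difference was 0.16 and without 1432 and 1437 it was -0.27. From day 22 to day 26 SCG3 was lower by 0.45 on the log2 scale (adjusted p = 0.0138), under the 2-fold minimum, where 11.3% of genes were called and the median of all genes was -0.35. Over the limma fits with other settings this difference ran from -0.91 to -0.04, the latter with libraries rescaled to the median gene (adjusted p = 0.817). From day 26 to day 32 SCG3 went up by 0.29 (adjusted p = 0.151, exact permutation p = 0.00216), with all 6 libraries of day 32 above all 6 of day 26, by 70.25 against 70.24 FPKM at the closest. Groups did not overlap in this direction in 3.52% of genes, and 0.835% were called. Under TPM the difference of SCG3 was 0.01. From day 32 to day 40 SCG3 changed by -0.16 (adjusted p = 0.362) and SCG5 by -0.75 (adjusted p = 0.210), with 2.93% of genes called. Without library 1315 the SCG5 difference was -0.46, and under TPM it was -0.18. The sign of the SCG3 difference turned with the scaling, from -0.37 after rescaling to the median gene to 0.42 under TPM. Over the limma fits its adjusted p ran from 0.00599 to 0.971, always under the 2-fold minimum.

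The rest of the granule machinery was followed with a list of 40 other genes, of which 32 were listed at some day. The list was chosen with earlier results of these data known, so its counts are no independent support. The authors had already reported GH, PRL, CGA, TSHB, FSHB and POMC as raised at day 42, and also measured these hormones by qRT-PCR. They reported PCSK1, CPE, CADPS and SYT4 as enriched at day 42 against other tissues, which is not a comparison between days. Between controls of days 22 and 42, 27 were tested, 13 were called higher and 2 lower (12.8% and 20.2% over all genes), with a median log2 fold change of 0.98 against -0.15 over all tested genes. Among cargo hormones the 6 tested were called higher, with a median of 11.89. These are the hormones whose sum was checked above, so their calls repeat that check and add no support. One of them, FSHB, averaged 0.0580 FPKM in controls of day 22 and passed the filter on low values only through day 42, and without it 12 of 26 genes of the list were higher, with a median of 0.97. They included CGA, the shared alpha subunit of the glycoprotein hormones, which rose by 12.35, and growth hormone GH, which rose by 12.08. Among genes of prohormone processing, PCSK1, the other main prohormone convertase, rose by 4.01 (adjusted p = 2.71e-08) and PCSK2 by 1.51 (adjusted p = 2.81e-05). The carboxypeptidase CPE, which trims basic residues from cut prohormones, had 0.98 (adjusted p = 0.0349) and the amidating enzyme PAM 0.96 (adjusted p = 0.0771), and neither was called. The lysosomal protease CTSB was lower, with -1.63 (adjusted p = 6.39e-08). Of 7 processing genes tested, 2 were thus higher and 1 lower, and the differences of SCG5 and SCG3 lay between those of PCSK2 and PCSK1.

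The membrane and release genes moved less evenly. Of 4 tested genes of the granule membrane and its acidification, the electron carrier CYB561, which keeps ascorbate reduced inside granules, rose by 3.81 and PTPRN2, a membrane protein of neuroendocrine granules, by 2.09, while ATP6AP1, an accessory subunit of the proton pump, was lower with -1.52 (adjusted p = 0.00834). Of 10 exocytosis genes, 3 were higher. They were CADPS, which primes granules for release (2.43), SYT4 (2.55) and RPH3AL (2.03). Neither SNAP25 (0.84, adjusted p = 0.0647) nor SYT1 (-0.21, adjusted p = 0.712), parts of the fusion machinery that neurons also use, was called. After rescaling to the median gene 17 of the 27 were called higher, with CPE, PAM, QPCT and SNAP25 added to the 13, beside 16.8% of all genes. Under TPM 12 were, without PCSK2, beside 8.61% of all genes. In heat-stressed birds 17 of 27 were higher and 2 lower, with a median of 1.58, beside 12.3% higher, 20.1% lower and a median of -0.15 over all genes. FSHB averaged 0.00983 FPKM in heat-stressed birds of day 22 and passed the filter only through day 42. Without it 16 of 26 were higher, with a median of 1.46. In controls the median of the list was lifted by the hormones, and by role it was 0.96 for processing, 1.07 for the membrane and 0.61 for exocytosis.

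**Figure D2:**
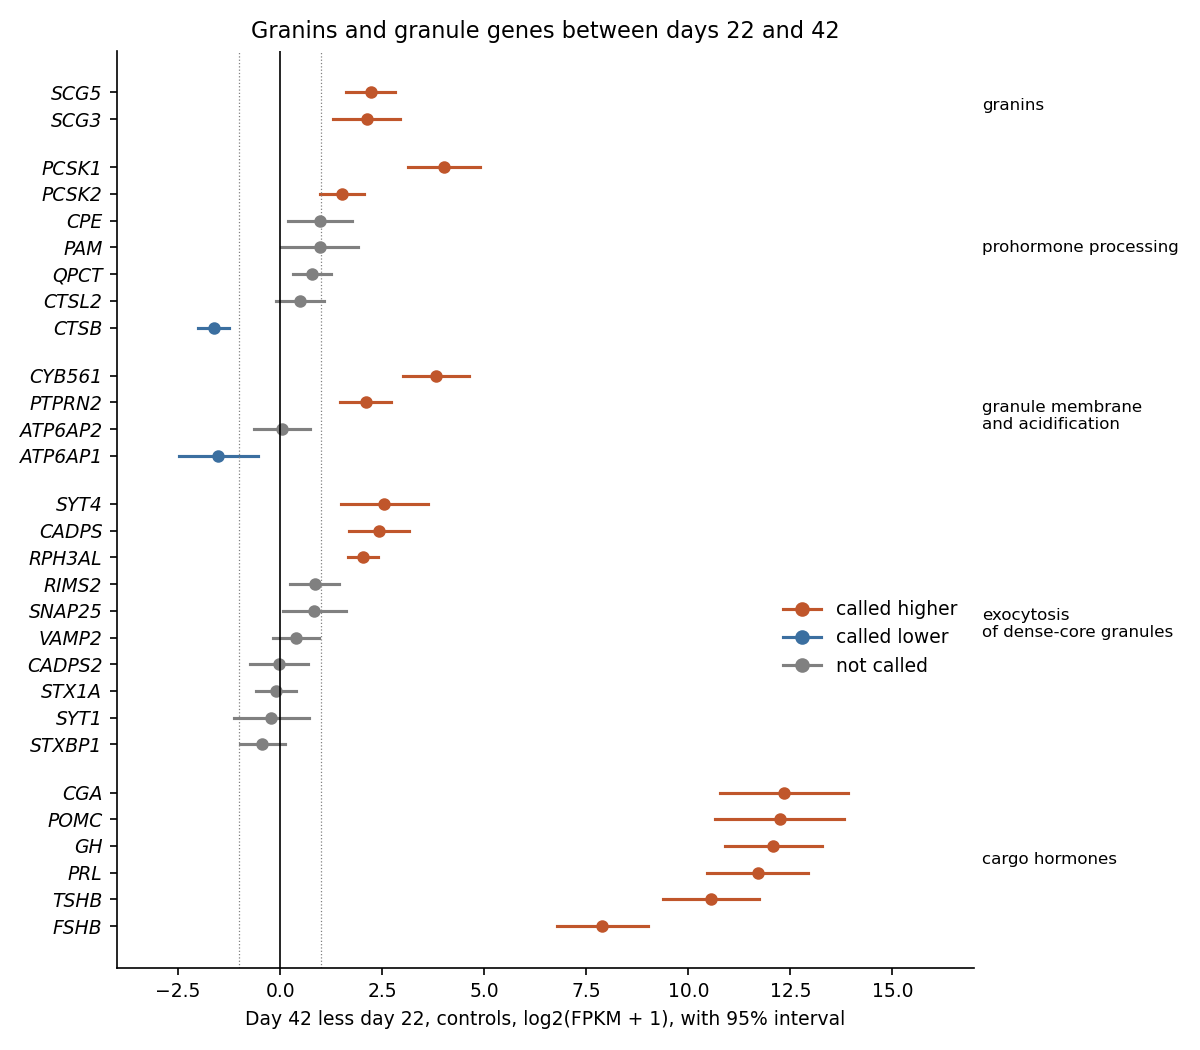
Log2 fold change of log2(FPKM + 1) from day 22 to day 42 in control libraries, with its 95% interval, for SCG5, SCG3 and the 27 tested genes of the granule list by role. Dotted lines mark a 2-fold change. Orange genes were called higher, blue lower and grey not called. SCG5 (2.22) and SCG3 (2.12) lie near PTPRN2 and CADPS, and the hormones, from 7.89 in FSHB to 12.35 in CGA, lie far to the right.

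CHGA, the granin that is most used as a serum and tissue marker of endocrine cells, had the largest coefficient of variation of the granins in each of the 5 groups in which it was listed. At day 21, 9 of 15 control libraries lay between 11.5 and 23.6 FPKM and the other 6 between 56.3 and 161, with a median of 16.1. At day 26 the 6 control libraries had 1.95, 7.26, 7.34, 9.19, 78.7 and 237 FPKM, and the 5 heat-stressed ones 12.2, 36.2, 50.8, 78.2 and 131. At day 32 the controls had 4.07, 5.40, 66.2, 123, 344 and 1425 FPKM and the heat-stressed ones 3.12, 11.4, 17.05, 17.35, 169 and 247. High and low libraries thus occurred in each group, and the highest was 350 times the lowest in the controls of day 32. The coefficient of variation at day 21 was 103%, above that of 97.2% of genes. Between controls of day 26 and day 32 the log2 fold change was 1.95 with an interval of -1.20 to 5.11 (adjusted p = 0.451), and it was 1.09 without library 1309.

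The gene whose pattern was most like that of CHGA was CGA. Over the 38 libraries of days 21, 26 and 32, Spearman's correlation of their FPKM was 0.902, the highest of 7043 genes, and 0.937 after the group means were taken out. Next came LHX3 (0.888), a homeobox gene that acts early in the making of anterior pituitary cells. Library 1309 of day 32, with CHGA at 1425 FPKM, had CGA at 1507 and a sum of anterior pituitary factors of 74.6, against a group median of 7.28. Library 1512 of day 26, with CHGA at 237 FPKM, had CGA at 482. The 2 libraries in which CGA was listed at 0, 847 and 1277, had CHGA at 1.95 and 4.07 FPKM, the lowest controls of their day. After group means were taken out, the correlation with CHGA was -0.110 for GH, 0.233 for PRL, 0.483 for POMC and 0.467 for SCG5. These libraries share tables and scaling, and the figures are descriptions without a test. At day 42, where CGA was 29192 FPKM in the mean of controls, CHGA was not in the table.

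SCG2, whose product gives rise to the peptide secretoneurin, was listed by this symbol only at day 32. The RefSeq table gives the name SCG2 to another Entrez entry, 101750767, an unnamed neighbouring locus from 7719619 to 7743345 in the tables of days 26 and 32. Its values there were at most 0.0216 FPKM, and at day 22 1 of 23 libraries was above 1 FPKM, at 3.20. They were not used, so which entry stands for SCG2 rests on the symbol in the table. The 6 control libraries had 3.89, 7.64, 24.0, 35.6, 41.1 and 165 FPKM, and the 6 heat-stressed ones 1.74, 12.6, 13.8, 15.4, 16.1 and 68.5. Library 1315 was the highest control and library 1303 the highest heat-stressed one, and both were also the highest of their group in SCG5, with 161 and 74.1 FPKM. In these 12 libraries the genes most like SCG2 were RAB3C, a small GTPase of synaptic vesicles, and PPM1H, a phosphatase (both 0.993, Spearman's correlation over 12 libraries), then GABRA5, a GABA receptor subunit (0.986). These are the top of 6863 genes, and RAB3C, PPM1H and GABRA5 averaged 1.96, 1.12 and 1.82 FPKM, near the filter of 1 FPKM. After the group means were taken out the genes most like SCG2 were PPM1H (0.993) and the opioid precursors PENK (0.979) and PDYN (0.972). On the levels, SNAP25 came to 0.895 (123rd), SYT1 to 0.846 (219th) and the convertase PCSK2 to 0.825 (274th). After the group means were taken out PCSK2 came to 0.881 (59th) and SNAP25 to 0.839 (125th). Of the hormones on the levels PRL came to 0.866 (185th), POMC to 0.790, CGA to 0.748 and GH to 0.469. PRL was at 0 in 5 of 6 heat-stressed libraries. Library 1315 had SYT1 at 115, SNAP25 at 133 and SST, the somatostatin gene, at 386 FPKM, the highest values of any library. Its summed neuron markers, which include SYT1 and SNAP25, were 515 FPKM against a group median of 70.7. Library 1303 had the highest sum of the heat-stressed libraries, 127 FPKM. Markers of neurons thus moved with SCG2, as did PCSK2 and, to differing degrees, hormones, and the part of any of them in it was not tested. SNAP25 and SYT1 also stand in the granule list, so they are not markers of neurons alone.

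**Figure D3:**
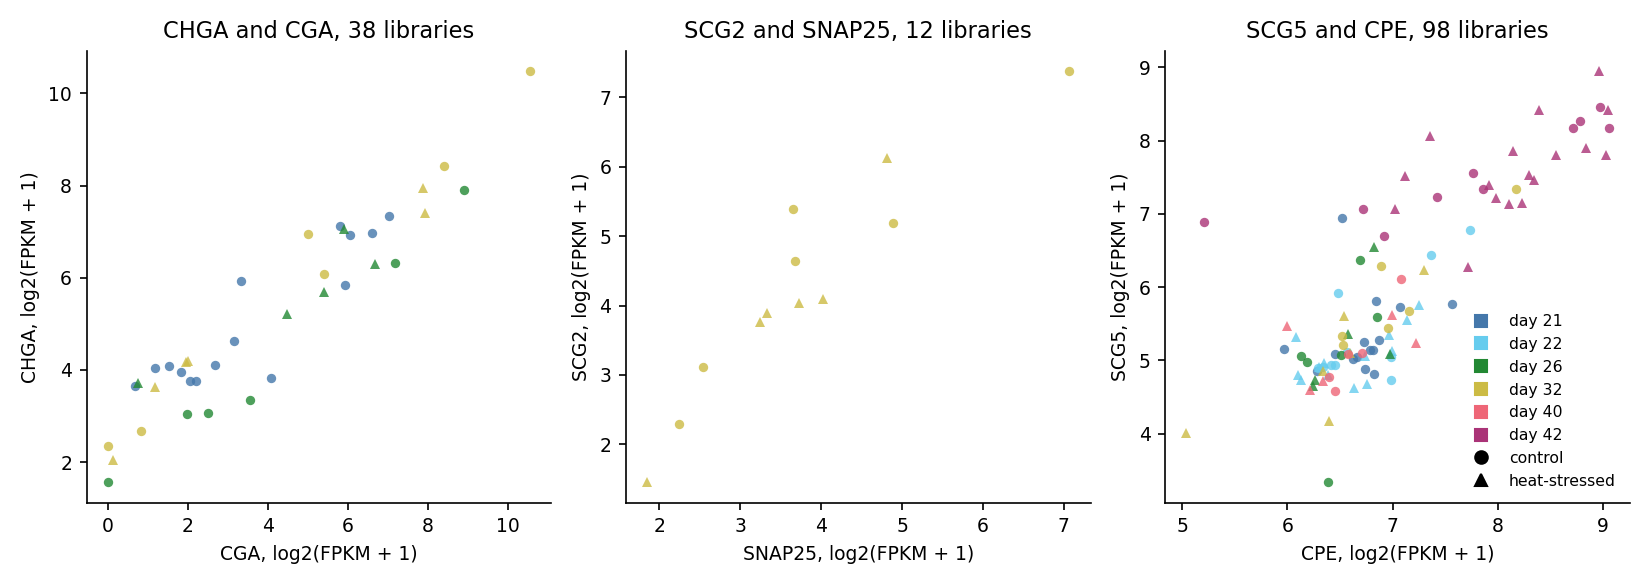
Log2(FPKM + 1) of CHGA against CGA (38 libraries), SCG2 against SNAP25 (12 libraries) and SCG5 against CPE (98 libraries), coloured by day, with controls as circles and heat-stressed birds as triangles. CHGA and CGA rise together over their whole range, with a Spearman correlation of 0.902 of the levels. SCG2 follows SNAP25 (0.895), with library 1315 at the top right, and SCG5 follows CPE (0.792), with day 42 at the upper right.

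The likeness of SCG5 covers every day, day 42 included, unlike that of CHGA and SCG2, so their nearest genes are not directly comparable. Over all 98 libraries its levels were most like those of KCNIP4, a potassium channel partner (Spearman's correlation 0.799), CPE (0.792) and EPCAM, an epithelial adhesion molecule (0.791). After the group means were taken out CPE came first of 7338 genes (0.648), followed by UBE2QL1 (0.641) and the neuronal splicing factor NOVA1 (0.623). CPE was 107 ± 28.4 FPKM (SD, n = 15) at day 21 and 276 ± 179 (n = 10) in controls of day 42, and library 1012, the lowest in SCG3, was also the lowest in CPE of day 42, at 36.0 FPKM. The 2 controls of day 22 with the most SCG5, 1432 and 1437, had SNAP25 at 43.2 and 76.7 FPKM against a group median of 10.9. Their summed neuron markers, which include SNAP25, were 181 and 222 FPKM against 79.9. Their hormone sums, 171 FPKM in 1432 and 163 in 1437, were among the 3 highest of the group, whose median was 21.7. At day 26 the 2 libraries highest in SCG5, 1512 and 1510, had SNAP25 at 5.48 and 2.80 FPKM, the latter the lowest of that day, where the range was 2.80 to 15.8. The levels of SCG3 were most like those of UGDH (0.861), which makes a building block of glycosaminoglycans, PODXL (0.849) and RFTN1 (0.842), and after the group means were taken out REEP1 (0.627), OSTM1 (0.622) and CMTM4 (0.599). PCSK2 ranked 25th of 7338 genes by likeness to SCG3 on that scale (0.558).

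A relation of SCG3 and SCG5 passed at day 42 by Spearman's rho and at day 32 by Pearson's r, and at no other day. Over the 27 libraries of day 42, with group means taken out on the log2 scale, Pearson's r was 0.38 (permutation p = 0.0446, adjusted 0.119 over 8 relations) and Spearman's rho 0.605 (permutation p = 0.00104, adjusted 0.00832). Without the 2 libraries farthest from the median in SCG3, 1012 and 1014, r was 0.49. Within the 11 libraries numbered 1400 to 1500 r was 0.83 and rho 0.818, and within the 14 numbered below 1100 they were 0.35 and 0.530. At day 32 r was 0.68 (adjusted p = 0.04996 over 8 relations) and rho 0.734 (adjusted p = 0.0696), both by a permutation test over 12 libraries, and r was 0.55 without 1303 and 1310. At days 21, 22, 26 and 40 r was between -0.44 and 0.26 and none of these passed. With 10 to 23 libraries per day this does not show that a relation is absent. The r of 0.20 at day 40 became 0.54 without libraries 1575 and 1578. The -0.44 of day 21 became 0.06 without libraries 1280 and 1564 and was -0.02 within the 13 libraries numbered 1500 and above. SCG2 and SCG5 at day 32 had r = 0.79 (adjusted permutation p = 0.0278) and rho = 0.608 (0.121), with r = 0.62 without 1276 and 1315.

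**Figure D4:**
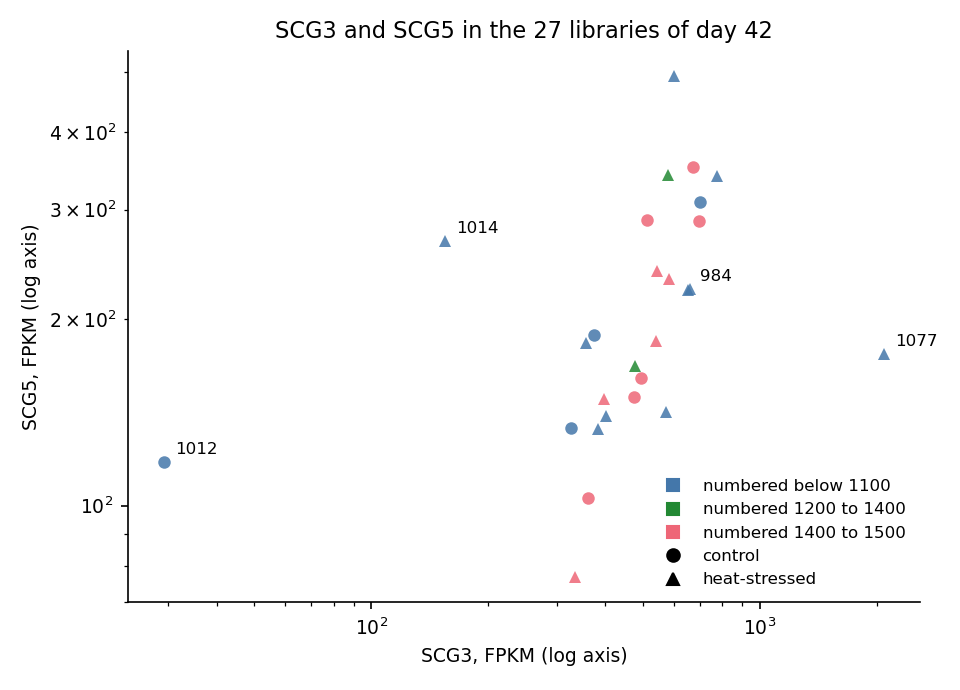
SCG5 against SCG3 in FPKM (both log axes) in the 27 libraries of day 42, coloured by range of library number, with controls as circles and heat-stressed birds as triangles. Most libraries run from lower left to upper right, and libraries 1012 (29.3 FPKM of SCG3), 1014 (155) and 1077 (2088) lie off to the sides.

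The comparison of houses asks whether heat changes the granin transcripts, and no granin passed the test at any day. Of 13 comparisons of a granin between heat-stressed and control libraries, 0 were called by limma and 0 by a Wilcoxon rank-sum test, 1 had an unadjusted p under 0.05 by each tool, and the mean was higher in heat-stressed birds in 6. Over all tested genes, 0.133% were called at day 22, 0.584% at day 26 and 0% at days 32, 40 and 42, where 609, 416 and 242 genes had an unadjusted p under 0.05 by limma. Of the granule list, 24 to 30 genes were tested at each day and 0 were called.

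**Figure D5:**
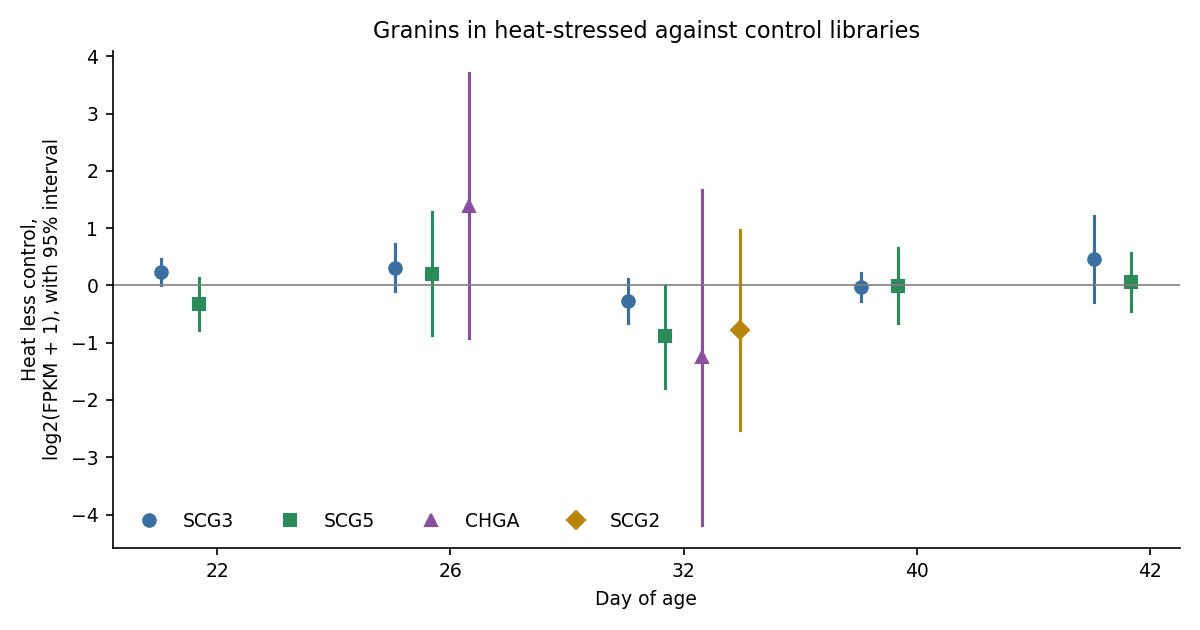
Difference of log2(FPKM + 1) between heat-stressed and control libraries with its 95% interval by day, for SCG3, SCG5, CHGA and SCG2. All intervals but that of SCG3 at day 22 (0.01 to 0.47) include 0, and those of CHGA are widest.

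At day 22, after 8 hours of heat, SCG3 was 102 ± 16.4 FPKM (SD, n = 13) in heat-stressed and 87.0 ± 19.5 (n = 10) in control birds, a log2 fold change of 0.24 (95% interval 0.01 to 0.47, unadjusted p = 0.0451, adjusted p = 0.991 by limma). Of the heat-stressed libraries 11 of 13 were above the control median, and the groups overlapped. SCG5 had 0.32 less in heat-stressed birds (-0.77 to 0.13), the ratio of medians was 0.976, and without control libraries 1432 and 1437 the log2 fold change was -0.01. At day 26 the 5 heat-stressed libraries had SCG3 at 57.2, 61.6, 70.2, 92.3 and 118 FPKM against 50.8 to 70.2 in the controls, a log2 fold change of 0.31 (-0.10 to 0.72). SCG5 was at 24.1, 25.5, 32.9, 40.1 and 92.3 FPKM in them and its log2 fold change was 0.21 (-0.86 to 1.28). For CHGA it was 1.39 (-0.92 to 3.70), and all 5 heat-stressed libraries were above the control median, while their range lay within that of the controls. The ratio of medians was 6.15 and the ratio of means 1.09 (exact permutation p = 0.892). The CHGA difference was 0.86 without library 847, 2.13 without library 1512 and 0.35 within libraries numbered 1500 and above, where that of SCG3 was -0.05. That range held only heat-stressed libraries 1510 and 1511 and controls 1512, 1513 and 1514. Controls 845, 847 and 1078 were numbered below 1100, where no heat-stressed library was, so number range and heat were partly confounded. Hormone sum medians were 21.6 FPKM in controls and 128 in heat-stressed birds and anterior factor medians 0.55 and 2.44, and their part in the CHGA value was not tested.

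At day 32 all 4 granins had lower means in heat-stressed birds, and none passed. SCG5 was 35.9 ± 22.2 FPKM (SD, n = 6) against 67.7 ± 47.9 (n = 6), a log2 fold change of -0.89 (-1.78 to 0.01, adjusted p = 0.746, exact permutation p = 0.147), with 4 of 6 heat-stressed libraries below every control. Without library 1315 it was -0.60 and without library 1303 it was -1.13. SCG3 was 64.9 ± 19.8 against 76.3 ± 8.62 FPKM, with 5 of 6 heat-stressed libraries below every control and library 1303 above them all (log2 fold change -0.27, -0.65 to 0.11). Rescaling to the median gene, which takes out the median of -0.17 over all genes, brought SCG3 to -0.08. CHGA had -1.26 (-4.19 to 1.67), which went to -0.39 without library 1309, and SCG2 had -0.77 (-2.52 to 0.97), which went to -0.23 without library 1315. Markers of the anterior lobe were lower in heat-stressed birds in the same libraries, with hormone sum medians of 130 FPKM in controls and 44.4 in heat-stressed birds and anterior factor medians of 7.28 and 1.07. Summed neuron markers had medians of 70.7 and 65.9 FPKM and highest values of 515 and 127. The part of these markers in the granin differences was not tested.

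At day 40 the 2 houses were closest. SCG3 was at 59.0, 63.0, 66.7, 69.5 and 75.03 FPKM in heat-stressed libraries, within the control range of 57.7 to 77.8, and the log2 fold change was -0.03 (-0.28 to 0.22). SCG5 was at 23.3, 25.2, 36.9, 43.2 and 48.2 FPKM, within the control range of 22.9 to 67.9, with -0.00163 (-0.66 to 0.66). At day 42, after 3 weeks, SCG3 was 594 ± 413 FPKM (SD, n = 17) in heat-stressed and 464 ± 206 (n = 10) in control birds, a log2 fold change of 0.47 (-0.29 to 1.22, adjusted p = 0.999). This value rested on single libraries, since it was 0.06 without control library 1012 and -0.10 without 1012, 1077 and 984. Within number ranges it was 1.25 below 1100 and -0.15 from 1400 to 1500. The controls below 1100 were at 29.3 (library 1012), 327, 374 and 701 FPKM, so the 1.25 includes library 1012. SCG5 was 218 ± 99.8 against 209 ± 90.8 FPKM with 0.06 (-0.44 to 0.56), an interval of 0.735-fold to 1.48-fold, and within the same number ranges it had 0.29 and -0.32. For the heat effect of SCG3 and SCG5 between pairs of days, and of CHGA between days 26 and 32, 21 differences were tested by an interaction term. None had an adjusted p under 0.05 and 2 had an unadjusted p under 0.05, both of SCG3, with -0.51 from day 22 to day 32 (adjusted p = 0.589) and -0.58 from day 26 to day 32 (adjusted p = 0.364). Over all genes, the share with a differing heat effect was 0% between day 22 and days 32, 40 and 42 and 0.663% between days 22 and 26. It was 0.137%, 0.201% and 0.123% between day 26 and days 32, 40 and 42. It was 0.0118% between days 32 and 40, 0.0111% between days 32 and 42 and 0.0115% between days 40 and 42.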

How the data were processed

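RNA of 98 whole pituitaries, 1 library per bird, was analysed from 6 tables, 1 per day. The authors made poly(A) libraries with a stranded Illumina kit, aligned the reads to galGal4 with Bowtie and TopHat, and deposited FPKM values per gene from Cufflinks. Versions are not given in the sources used here. Counts per gene and the depth of single libraries are unknown. The authors give only a range of reads per library, for the birds they reported. An FPKM of 0 was not taken as absence, since EEF1A1 was listed at 0 in many libraries of day 42. Groups came from the sample titles. Of 100 samples, 2 heat-stressed ones of day 42 had no column, 3 columns matched no sample and were not used, and 16 values of library 1417 were missing. No pair of libraries was identical.

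Values were taken as log2(FPKM + 1). Genes averaging 1 FPKM or more across the libraries of a comparison were fitted, with only its 2 groups, with limma 3.58.1 (trend, R 4.3.3), and p-values were adjusted over all of them by the Benjamini-Hochberg method. A call needed an adjusted p under 0.05 and, between days, a 2-fold change. Single values were tested by two-sided permutation of mean FPKM, exact with fewer than 10 libraries in a group and otherwise with 100000 resamples. Tables were normalised separately, so differences between days carry any difference between tables. Likeness was Spearman's correlation, and genes among the 3 with the highest value on each scale are named, apart from 1 that is not reported here. Relative depth was estimated from the 1st percentile of the values above 0 and was not checked against numbers of reads. The fits were tested on simulated data. Alternatives were a pseudocount of 0.1, no filter, TPM, rescaling to the median gene, a Wilcoxon test, library number ranges and libraries left out; leaving out named libraries was added after the data were seen. The members and lists were chosen with earlier results of these data known.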

Additional observations from a re-analysis of the deposited data

Results flagged for a closer look

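In groups of 4 to 10 libraries, 10 of 22 granin values by group had 1 library whose distance from the next was larger than Dixon's 95% limit, where chance gives about 1 in 20 for normally distributed values. FPKM values are skewed, and on the log2(FPKM + 1) scale 2 were found, 1310 in SCG3 at day 32 and the low library 1012 in SCG3 at day 42, of which only the first was also among the 10. In SCG3 these were control library 1551 of day 22 (130 FPKM), control library 1310 of day 32 (93.2) and heat-stressed library 1303 of day 32 (103). In SCG5 they were heat-stressed library 1510 of day 26 (92.3), control library 1315 of day 32 (161) and control library 1579 of day 40 (67.9). In CHGA they were control library 1512 of day 26 (237) and control library 1309 of day 32 (1425), and in SCG2 control library 1315 (165) and heat-stressed library 1303 (68.5), both of day 32. All 10 were the highest of their group. Libraries 1315 and 1303 stood apart in 2 granins each, and library 1579 had the highest summed neuron markers of day 40, 151 FPKM.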

How the results depend on the processing

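Of 418 alternative fits of single granin values, 82 were of called differences, of which 80 were called again, 2 were lost and 0 turned sign. Of 336 fits of uncalled differences 1 was called and 29 turned sign. Both losses were SCG5 from day 22 to day 42 in controls, leaving 1 granin called in place of 2, with 1.07 both with the number range as a covariate (adjusted p = 0.0645) and in libraries numbered 1400 to 1500 only (adjusted p = 0.0890). Both fits take the day 22 side of the difference from libraries 1432 and 1437 alone, so they are not separate evidence. Without a minimum fold change 1 granin was called from day 22 to day 26, SCG3 with -0.45 (adjusted p = 0.0138). The ratio of CHGA between houses at day 26 was 1.09 by means and 6.15 by medians. The coefficient of variation of SCG5 at day 21 went from 55.6% to 25.6% without library 1280, and the number of libraries apart from their group from 10 to 2 on the log2 scale, both chosen after seeing the data. The causes were not tested. Counts of called genes over all genes moved more. Between houses 11 at day 22 became 1 under TPM, without a filter, with the number range as a covariate, in libraries numbered 1500 and above and without 1432 and 1437, and 7 by the Wilcoxon test. The 53 of day 26 became 28 after rescaling, 23 under TPM, 6 with the covariate, 5 in libraries numbered 1500 and above, 0 by the Wilcoxon test and as few as 17 without a library (1313 or 1511). With 5 and 6 libraries the smallest p of the Wilcoxon test is coarse, so that 0 adds no support. The 0 of days 32, 40 and 42 became at most 1. From day 21 to 22, 5 became between 1 and 20. From day 22 to 26, 157 higher and 747 lower became 99 and 3109 under TPM and 383 and 248 after rescaling, with 1429 called in all with a pseudocount of 0.1 and 4030 without a minimum fold change. From day 26 to 32, 74 became 133 under TPM, 281 without a minimum fold change, and 42 and 43 without 1310 and 1078. From day 32 to 40, 195 higher and 56 lower became 2192 and 65 under TPM and 108 and 96 after rescaling, with 1098 called without a minimum fold change, 25 with the covariate and 166 and 145 without 1577 and 1579. TPM gave 4034, 4814 and 4717 in place of 2520, 2817 and 2674 for day 42 against days 40 and 21 and in heat-stressed birds, and no minimum fold change gave 4401, 4979 and 4986 for day 42 against days 22 and 21 and in heat-stressed birds. No paired analysis was possible because no library number occurs in more than 1 group. With 5 or 6 libraries in a group, intervals of CHGA and SCG2 spanned more than 10-fold.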
